A study of Mus musculus with 12 samples.

Results

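*P2ry6*, *P2rx4*, *P2rx7*, *Entpd1*, *Adora3* and *Adora2a* encode receptors for extracellular nucleotides and adenosine and the ectonucleotidase that links both. *P2rx4* and *P2rx7* are cation channels gated by ATP, *P2ry6* is a G protein-coupled receptor for UDP, *Entpd1* (CD39) is a membrane enzyme that removes phosphates from ATP and ADP, and *Adora3* and *Adora2a* are G protein-coupled receptors for adenosine. The peaks described here are those that carried 1 of these 6 gene names in either of the deposited peak tables: 70 of 26706 peaks of Rpb2, a core subunit of RNA polymerase II, and 44 of 55862 peaks of H3K27Ac, the acetylation of histone H3 at lysine 27 found at active promoters and enhancers. *P2ry6* named 12 Rpb2 and 5 H3K27Ac peaks, *P2rx4* 8 and 6, *P2rx7* 5 and 5, *Entpd1* 31 and 23, and *Adora3* 14 and 5. *Adora2a* named 0 peaks in both tables and its locus (chromosome 10, 75316877 to 75334792 of mm10) overlapped 0 peaks, so it was not analysed further.

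Microglia sense extracellular ATP, UDP and adenosine released by neurons, glia and injured cells, and these cues act on process movement, phagocytosis and cytokine release. ATP is cut on the cell surface to AMP and then to adenosine, so that the same source feeds P2X, P2Y and adenosine receptors in turn. RNA polymerase II over a promoter and along a gene body, and H3K27Ac around it, are commonly read as marks of transcription, but neither measures RNA.

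The chromatin came from brain microglia of 2-month-old C57BL/6J mice, sorted as CD11b+ CD45lo cells and fixed, with 3 mice of 1 sex in each pool. WT mice carried both copies of *Cx3cr1*, the receptor for the chemokine fractalkine. In the *Cx3cr1*-KO mice, littermates of the WT mice from heterozygous crosses, both copies were replaced by eGFP, so that the KO cells expressed eGFP and the WT cells did not. Each genotype gave 2 pools, labelled female and male, for each antibody, or 8 ChIP-seq libraries in all. The peak tables carry 0 columns for the 4 input samples, which were not analysed here.

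The Rpb2 libraries held 11662185 to 44332626 reads, of which 11.2% to 15.1% lay in peaks. The H3K27Ac libraries held 10395804 to 21134403 reads, and the WT library labelled female stood apart, with 15.9% of reads in peaks against 61.1% to 65.3% in the other 3. The Rpb2 library labelled WT female held 136 reads at Y-linked peaks, while the KO female library held 0, so its reads went against its sex label. Scaling to total reads instead of reads in peaks moved the median log2FC (the log2 fold change, KO minus WT) over all peaks from 0.04 to 0.37 for Rpb2 and from -0.21 to 0.53 for H3K27Ac. All changes below are relative to reads in peaks. At *Cx3cr1* itself the 25 Rpb2 peaks together gave a log2FC of -0.35 ± 0.08 (SE, n = 2 per genotype; edgeR quasi-likelihood test, adjusted p = 0.121). A single Rpb2 peak past its 3′ end passed the test, where the WT libraries had 421 and 441 reads and the more deeply read KO libraries 193 and 130 (adjusted p = 0.00264). Peaks outside the replaced stretch of the gene do not check the genotype. Rpb2 peaks were found at 12 of 12 microglial marker genes, with a summed level of 10214 to 10650 CPM per library (reads of the peaks, scaled to 1000000 reads in tested peaks), and at 1 of 8 border macrophage and monocyte, 0 of 5 neutrophil, 0 of 8 lymphocyte, 0 of 7 neuronal, 1 of 6 astrocyte, 1 of 6 oligodendrocyte and 2 of 5 endothelial markers. H3K27Ac peaks were less restricted. They were found at 12 of 12 microglial, 6 of 8 border macrophage and monocyte, 2 of 5 neutrophil and 4 of 8 lymphocyte markers. The same held for 3 of 7 neuronal, 4 of 6 astrocyte, 4 of 6 oligodendrocyte and 4 of 5 endothelial markers. Summed H3K27Ac was 4195 to 7333 CPM per library for the microglial markers and at most 541 for any other set.

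The promoter sequences of these genes are set out first, for starts with and without an Rpb2 peak. RefSeq (GRCm38.p6) gave promoter windows for *P2rx4*, *Adora3* and both starts each of *P2rx7* and *Entpd1*. They run from base -250 to base 29, where 0 is the first transcribed base, on the + strand, and the capitals mark motif matches on either strand. The motif searched for PU.1, the lineage factor of myeloid cells, was its core GAGGAA. For the stress-responsive AP-1 factors it was TGACTCA, and for the GC box of Sp factors it was GGGCGG. The TATA box was searched as TATAAA, and the E-box of helix-loop-helix factors as CACGTG. Matches did not overlap each other. The sequences shown are the 4 starts that carried an Rpb2 peak and, for contrast, the upstream start of *Entpd1* that did not:
P2rx4, chr5:122707294-122707573: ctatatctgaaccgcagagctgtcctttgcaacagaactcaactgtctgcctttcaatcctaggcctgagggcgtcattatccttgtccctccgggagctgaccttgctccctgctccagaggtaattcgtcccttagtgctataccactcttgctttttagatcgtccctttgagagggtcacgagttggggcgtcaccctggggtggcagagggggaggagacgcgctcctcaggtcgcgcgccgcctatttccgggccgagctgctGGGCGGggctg
P2rx7, chr5:122643677-122643956: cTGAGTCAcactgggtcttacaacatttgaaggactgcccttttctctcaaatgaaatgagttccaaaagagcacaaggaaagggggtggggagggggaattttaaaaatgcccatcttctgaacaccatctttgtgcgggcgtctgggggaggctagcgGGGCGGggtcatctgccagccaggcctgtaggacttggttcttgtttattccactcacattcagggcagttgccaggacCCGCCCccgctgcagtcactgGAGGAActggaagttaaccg
Entpd1 with an Rpb2 peak, chr19:40659520-40659799: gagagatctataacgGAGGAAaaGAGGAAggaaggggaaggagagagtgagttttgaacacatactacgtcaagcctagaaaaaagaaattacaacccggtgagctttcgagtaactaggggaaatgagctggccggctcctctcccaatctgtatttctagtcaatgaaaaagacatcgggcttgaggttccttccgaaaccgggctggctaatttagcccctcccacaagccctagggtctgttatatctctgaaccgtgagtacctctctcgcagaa
Entpd1 without an Rpb2 peak, chr19:40612116-40612395: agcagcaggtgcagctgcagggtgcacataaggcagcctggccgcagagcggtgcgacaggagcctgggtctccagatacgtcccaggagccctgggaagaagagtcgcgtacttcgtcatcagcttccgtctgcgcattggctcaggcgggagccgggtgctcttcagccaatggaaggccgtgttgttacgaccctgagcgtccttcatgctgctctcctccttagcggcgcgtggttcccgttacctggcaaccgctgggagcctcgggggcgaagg
Adora3, chr3:105904171-105904450: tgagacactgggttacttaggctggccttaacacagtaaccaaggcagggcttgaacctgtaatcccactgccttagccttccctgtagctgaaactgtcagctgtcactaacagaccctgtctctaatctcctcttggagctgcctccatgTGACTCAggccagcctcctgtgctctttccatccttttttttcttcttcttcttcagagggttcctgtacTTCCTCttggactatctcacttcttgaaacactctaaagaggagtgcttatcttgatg

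The PU.1 core was present at 3 of these 4 starts with an Rpb2 peak (*P2rx7* at base 10, *Entpd1* at bases -235 and -227, *Adora3* at base -28), against 28.3% of the 32851 RefSeq promoters of 300 bases. It was also present, at base 5, in the window of the second *P2rx7* start (base 122650383), which carried no Rpb2 peak and is not printed, so the core did not separate starts with Rpb2 from those without. AP-1 was matched in *P2rx7* at base -249 and in *Adora3* at base -98, against 5.20% of promoters, and the GC box in *P2rx7* at bases -90 and -11 and in *P2rx4* at base 19, against 35.7%. The TATA box and E-box letters, held by 13.6% and 7.15% of promoters, were in none of the 5 windows printed. *Adora3* held 1 CpG in 300 bases, fewer than most promoters (5.43% held fewer), while *P2rx7* held 8, the *Entpd1* start with Rpb2 held 10, *P2rx4* held 18 and the *Entpd1* start without Rpb2 held 23, against a median of 7. The second *P2rx7* start held 4, so that the starts without an Rpb2 peak had both more and fewer CpGs than the other start of the same gene. These matches are a description of letters and not of bound sites.

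*Entpd1* and *P2rx7* each have more than 1 annotated start, and Rpb2 marked 1 of them in both genes. For *Entpd1*, the RefSeq transcripts start at base 40612366 and base 40659770 of chromosome 19. The second start lay under an Rpb2 peak (chr19:40659636-40660000) of 104 and 135 reads in the WT libraries labelled female and male, and of 404 and 332 in the KO libraries in that order. No Rpb2 peak lay within 500 bp of the first, although a small H3K27Ac peak of 941 bp did, of 43, 69, 60 and 108 reads (WT female, WT male, KO female, KO male, the order used from here on). For *P2rx7*, 4 transcripts start at base 122643927 of chromosome 5, beside an Rpb2 peak of 214, 194, 706 and 279 reads, and 1 starts at base 122650383, with no Rpb2 peak within 500 bp. H3K27Ac per kb was lower there too, at 5.67 ± 1.49 in WT against 20.1 ± 1.16 at the start with Rpb2 (SD, n = 2).

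Levels at the starts are compared as CPM per kb of peak, with the peak that held the most reads within 1000 bp of a start standing for the gene. *P2ry6* had the highest Rpb2 level of these genes. Its start peak (chr7:100964181-100964408, - strand gene) had 264, 301, 768 and 364 reads, which is 889 ± 22.2 per kb in WT (SD, n = 2), above 97.4% of the 8350 genes with an Rpb2 peak at a start. *P2rx7* followed with 521 ± 97.0 (above 89.7% of genes), *Adora3* with 465 ± 29.4 (86.9%), *P2rx4* with 358 ± 3.46 (78.5%) and *Entpd1* with 233 ± 15.6 (60.8%). The median gene had 186. This order rests on the start peaks. With all Rpb2 peaks of a gene summed per kb, *P2ry6* lay above 60.0% of genes, *P2rx7* above 48.7% and *Adora3* above 40.0%. *P2rx4* lay above 35.9% and *Entpd1* above 28.2%, so that all but *P2ry6* fell below the median per kb. Without division by peak length, the sums of all these genes lay above the median. *Entpd1* lay above 99.5% of genes, *P2ry6* above 98.1%, *Adora3* above 97.5%, *P2rx4* above 92.8% and *P2rx7* above 87.7%. The WT start values of *P2rx7* and *Adora3* overlapped, and *P2rx7* was above *Adora3* in 1 of the 4 libraries. These neighbours thus did not differ beyond their spread. The other neighbours in the order of start peaks did not overlap between the WT libraries.

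**Figure D1:**
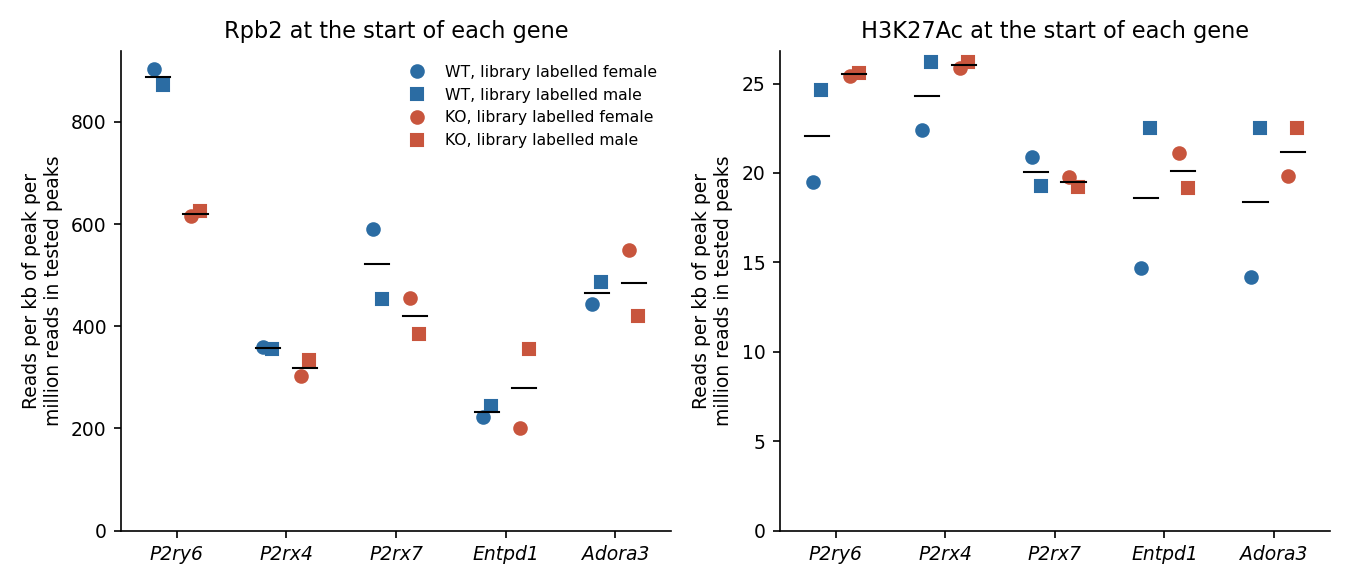
Rpb2 (left) and H3K27Ac (right) at the start of each gene, in CPM per kb of peak. Points are single libraries (circles labelled female, squares labelled male), blue for WT and red for KO, and bars are the mean of 2 libraries. *P2ry6* is the gene whose Rpb2 values are highest and whose KO libraries both sit below both WT libraries by a wide gap, and the WT female library is lowest for H3K27Ac at 4 of the 5 genes.

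H3K27Ac spread far wider than Rpb2 and did not follow the same order. The H3K27Ac peak over the Rpb2 start peak measured 24829 bp at *P2ry6*, 11166 bp at *Adora3*, 8746 bp at *Entpd1*, 5571 bp at *P2rx7* and 3181 bp at *P2rx4*, while peaks over 10 kb made up 1.08% of the H3K27Ac table. The *P2ry6* peak was wider than 99.9% of all H3K27Ac peaks and covered the gene from its start to near its 3′ end (chr7:100940564-100965393). Per kb, WT levels were 24.3 ± 2.72 for *P2rx4*, 22.1 ± 3.64 for *P2ry6*, 20.1 ± 1.16 for *P2rx7*, 18.6 ± 5.51 for *Entpd1* and 18.4 ± 5.88 for *Adora3* (SD, n = 2), above 75.6% to 93.0% of 8222 genes. Each neighbour in this order overlapped the next in WT. The choice of the overlapping peak was made after seeing the data, because the centres of the wide peaks of *P2ry6*, *Adora3* and *Entpd1* lie more than 1000 bp from the start.

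The genes most like each member in their 8 start values (Euclidean distance of the log2 level per kb over 8 libraries, among 8222 genes) were *Apc* and *Pag1* for *P2ry6*, *Top3a* and *Pigl* for *P2rx4*, *Ppp3ca* and *Msto1* for *P2rx7*, *Pik3cg* and *Ppib* for *Entpd1*, and *Skap2* and *Slc7a6os* for *Adora3*. Their distances were 0.287 to 0.472 log2 units, where the median gene lay 2.63 to 4.72 away. None of these 10 genes is on the purinergic list.

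Along the genes, the Rpb2 peaks that carried each name were laid out in 3 ways. In *P2rx7* and *P2rx4* most reads sat at the start, with 77.6% and 60.4% of the WT level of all peaks of the gene. *P2ry6* and *Adora3* had 38.4% and 25.3% there, and *Entpd1* 9.70%, against a median of 31.7% over the 1037 genes with a start peak and at least 5 Rpb2 peaks. The *Adora3* share rests on named peaks outside its transcript. The 3 peaks that overlapped the transcript held 137 CPM in WT, of which the start peak held 117, so within the transcript most reads sat at the start. In *Entpd1*, a gene of 129.2 kb, 27 of the 31 Rpb2 peaks overlapped the transcripts and 4 lay past the annotated 3′ end, and its highest peak away from the start was the 1 at that end (chr19:40741707-40742167), of 92, 97, 408 and 250 reads (log2FC 0.34 ± 0.31, adjusted p = 0.681). Both KO libraries were above both WT libraries there, as at 10.2% of all Rpb2 peaks listed for both genotypes. *Entpd1* had more Rpb2 peaks than 99.6% of the 10206 genes with any.

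**Figure D2:**
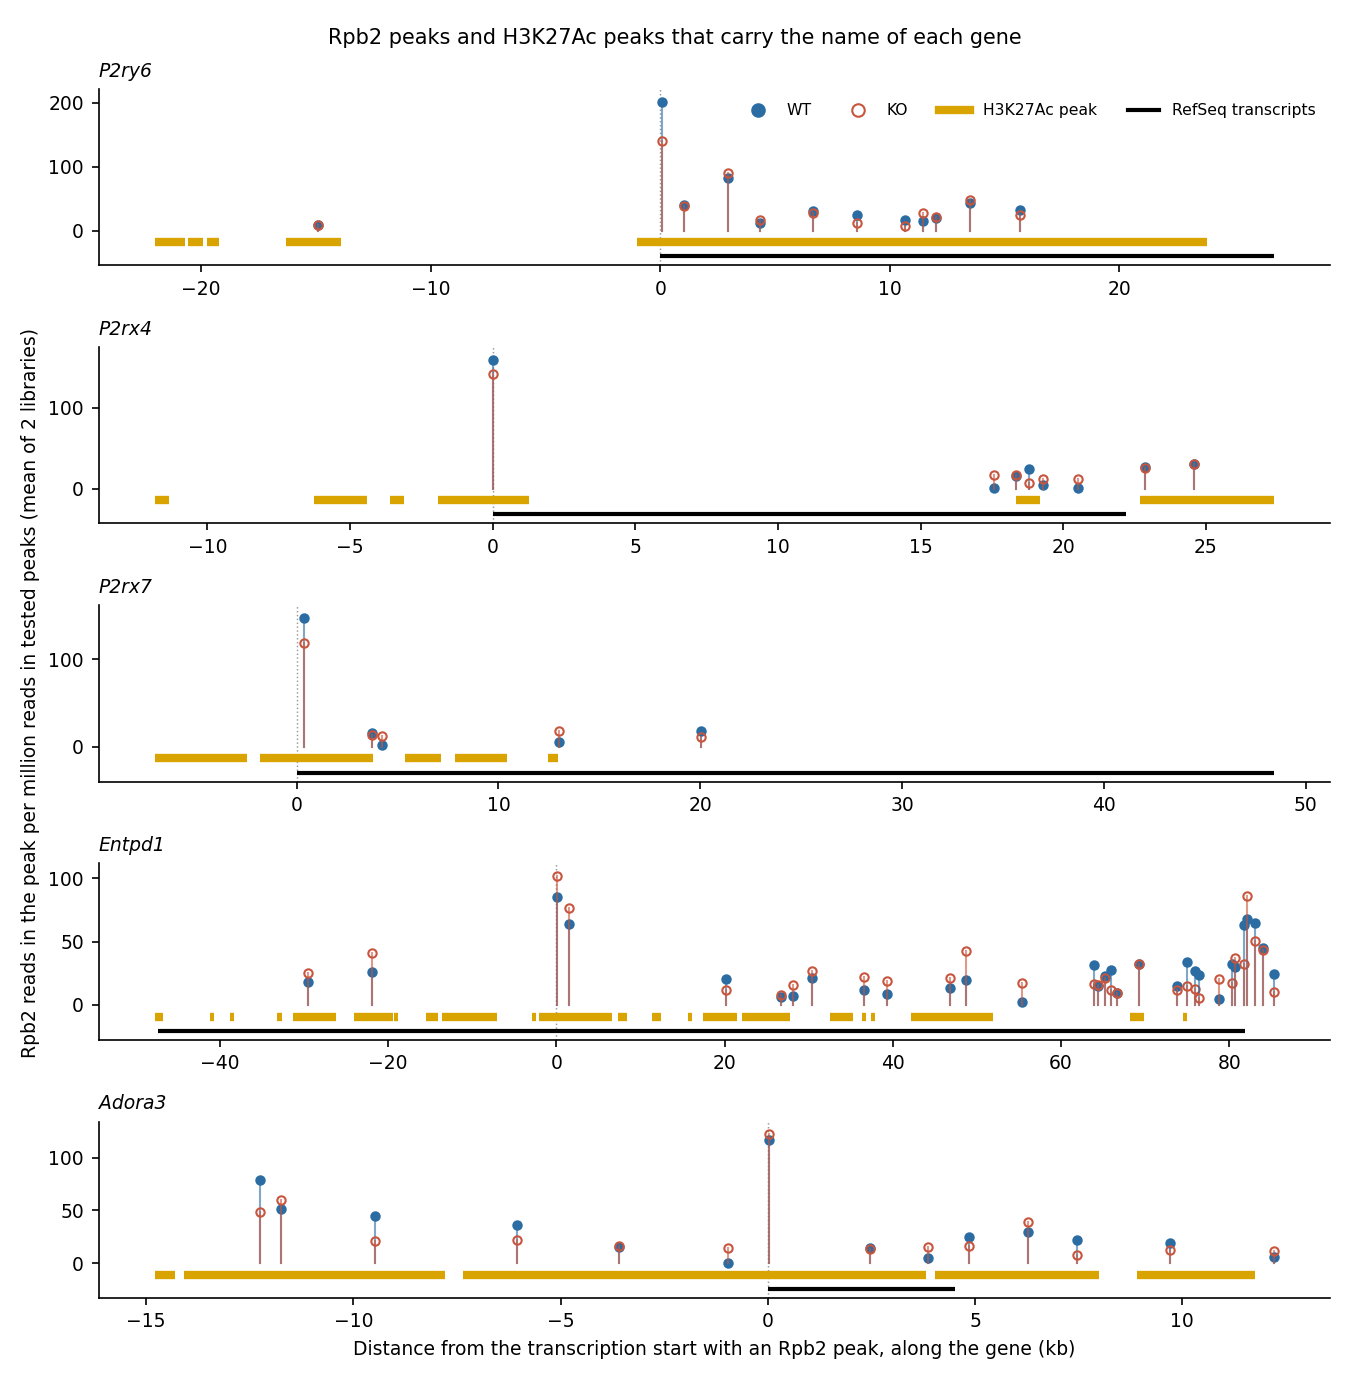
Mean Rpb2 level in CPM (vertical axis, filled blue for WT, open red for KO, n = 2 each) for every Rpb2 peak that carries the gene's name, against distance in kb from the start with an Rpb2 peak. Yellow bars are H3K27Ac peaks and black bars the span of the curated RefSeq transcripts. *P2rx4* and *P2rx7* are dominated by the start peak, while *Entpd1* has peaks from -29.5 to 85.3 kb and a group at its 3′ end.

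The nearest-start rule that names a peak limits these sums. The *P2ry6* transcript (100937634 to 100964366 of chromosome 7) overlapped 18 Rpb2 peaks, of which 7 in its 3′ part carried the name *Arhgef17*, and counting by overlap gives 628 CPM in WT and 592 in KO. Within *P2rx7*, 2 of 7 overlapping Rpb2 peaks carried the name *Mir8115*. *Adora3* is a gene of 4.5 kb inside the longer gene *Tmigd3* on the same strand, and 11 of the 14 Rpb2 peaks named *Adora3* lay outside the *Adora3* transcript. The reads of both genes cannot be told apart here. *P2rx4* and *Camkk2* meet end to end, and 2 of the 8 Rpb2 peaks named *P2rx4* lay past its 3′ end.

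Most Rpb2 peaks of these genes lay under H3K27Ac, and the share ranged widely. It was 12 of 12 in *P2ry6*, 13 of 14 in *Adora3*, 6 of 8 in *P2rx4*, 3 of 5 in *P2rx7* and 11 of 31 in *Entpd1*, or 64.3% of the 70 peaks against 76.6% of all Rpb2 peaks. More than 1000 bp from a start it was 60.9% of 64 peaks against 63.4% of all such peaks.

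The comparison of KO with WT asks whether losing *Cx3cr1* changed polymerase or H3K27Ac at these genes. With all Rpb2 peaks of a gene summed, 0 of 5 genes passed the test (edgeR quasi-likelihood test, Benjamini-Hochberg over 10206 genes), and 0 passed over all genes (0%). At an unadjusted p under 0.05, 1101 genes, or 10.8%, passed and 0 of these 5 did, and DESeq2 called 28 genes and 0 of these 5. *P2ry6* had 669, 804, 2301 and 1304 reads, which gives a WT level of 511 ± 1.56 CPM and a KO level of 476 ± 70.6 (SD, n = 2). Its log2FC was -0.11, with a 95% interval of -0.40 to 0.19 (adjusted p = 0.834). *P2rx4* had 304, 441, 1418 and 688 reads and a log2FC of 0.07 (-0.30 to 0.44, adjusted p = 0.926).

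*P2rx7* had 258, 271, 1081 and 390 reads, and a log2FC of -0.04 (-0.49 to 0.40, adjusted p = 0.974). *Entpd1* had 1180, 1265, 4415 and 2446 reads and the narrowest interval, 0.08 (-0.16 to 0.32, adjusted p = 0.849). *Adora3* had 677, 610, 2316 and 1075 reads and -0.07 (-0.39 to 0.25, adjusted p = 0.917). The genotypes overlapped at all 5 genes, where 22.4% of all genes had both KO libraries above both WT libraries and 19.7% below. Without the library labelled WT female the Rpb2 values were -0.13 for *P2ry6*, -0.08 for *P2rx4*, 0.03 for *P2rx7*, 0.14 for *Entpd1* and 0.13 for *Adora3*, none past the test.

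**Figure D3:**
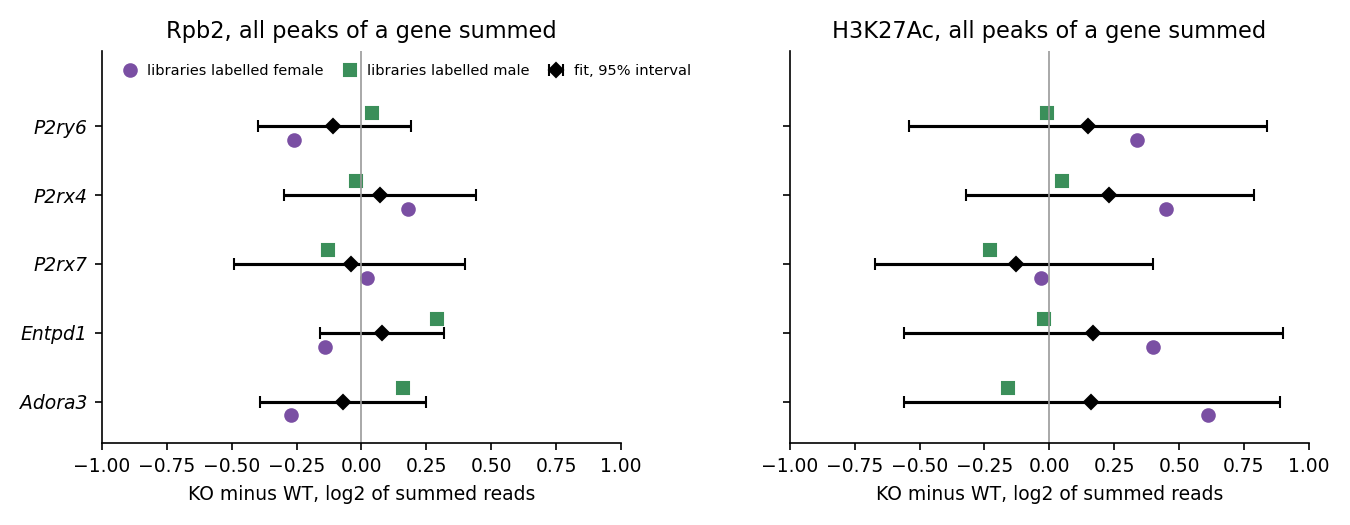
Log2 of KO over WT (horizontal axis) for the summed Rpb2 (left) and H3K27Ac (right) peaks of each gene. Diamonds with bars are the fitted value and its 95% interval, circles the ratio of the libraries labelled female and squares that of the libraries labelled male, and every interval spans 0.

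For H3K27Ac the sums also gave 0 of 5 genes past the test and 0 over 16938 genes (0%), with 1098 genes, or 6.48%, at an unadjusted p under 0.05 and 0 of these 5 among them. DESeq2 called 208 genes and 0 of these 5. *P2ry6* had 1918, 4131, 8655 and 8417 reads and a log2FC of 0.15 (-0.54 to 0.84, adjusted p = 0.997). *Adora3* had 1298, 3886, 7077 and 7168 reads and 0.16 (-0.56 to 0.89, adjusted p = 0.994). *Entpd1* had 2231, 5270, 10513 and 10694 reads and 0.17 (-0.56 to 0.90, adjusted p = 0.994). The WT female library was the lower of the WT pair at all 5 genes in CPM, at 350 against 646 for *Adora3* and 602 against 876 for *Entpd1*.

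*P2rx4* (541, 1190, 2634 and 2533 reads, log2FC 0.23, -0.32 to 0.79, adjusted p = 0.968) had both KO libraries above both WT libraries, as did 13.4% of all genes. *P2rx7* (699, 1301, 2442 and 2281 reads, -0.13, -0.67 to 0.40, adjusted p = 0.994) had both below, as did 14.2%. Without the WT female library the H3K27Ac values were -0.04 for *P2ry6*, 0.04 for *P2rx4*, -0.22 for *P2rx7*, -0.07 for *Entpd1* and -0.21 for *Adora3*, again none past the test. With that library as the only WT library, the values were 0.37 for *P2ry6*, 0.47 for *P2rx4*, -0.03 for *P2rx7*, 0.47 for *Entpd1* and 0.67 for *Adora3*. That fit assumes the lone WT library to vary like the KO pair, so only the size of the values is given. The part of the low share of reads in peaks in these values was not tested.

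At the start peaks, *P2ry6* was the member with the lowest p for Rpb2. It passed neither test, at 202 ± 5.03 CPM in the WT libraries against 141 ± 1.65 in those of the KO (SD, n = 2). The log2FC was -0.52 ± 0.22 (SE, edgeR adjusted p = 0.364), with an adjusted p of 0.0749 by DESeq2. It shrank to -0.19 with total reads as library size and to -0.38 with at least 10 reads in every library. With only peaks near starts it was -0.39, and with loess offsets -0.42. Leaving out 1 library kept it between -0.54 and -0.51. Both KO libraries lay below both WT libraries, and the ratio was -0.55 between the libraries labelled female and -0.48 between those labelled male. *P2rx4* gave -0.16 ± 0.23 at its start, *P2rx7* -0.31 ± 0.25, *Entpd1* 0.25 ± 0.32 and *Adora3* 0.06 ± 0.26 (SE, adjusted p = 0.650 to 0.941). At *P2rx4* both KO libraries (135 and 149 CPM) were below both WT libraries (160 and 158 CPM), so that 2 of the 5 start peaks had this pattern, which 29.9% of all Rpb2 peaks in both lists had, while values for *P2rx7*, *Entpd1* and *Adora3* overlapped between genotypes. Across the H3K27Ac peaks over these starts log2FC lay between -0.04 at *P2rx7* and 0.21 at *P2ry6*, with each adjusted p at 0.979 or above.

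Peak by peak, 0 of the 70 Rpb2 peaks passed the test, where 2 of 26706 (0.00749%) did over all peaks. DESeq2 called 2 of the 70, where it called 1022, or 3.83%, of all. Both, 1 at *Adora3* and 1 at *P2rx4*, were listed for KO alone and had at most 3 reads in a WT library, so their direction was fixed by how they were chosen. At an unadjusted p under 0.05, 6 of the 70 were higher in KO and 5 lower, where 6.12% and 6.06% of all peaks were. For H3K27Ac 0 of 44 passed, where 13 of 55798 (0.0233%) did over all tested peaks, and DESeq2 called 0 of them against 0.642% of the peaks it gave an adjusted p. Unadjusted, 0 of the 44 were higher and 1 lower, where 1.35% and 3.6% of all were. The shares among these genes were thus near those of all peaks.

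The deposited tables name the list that each peak came from, WT, KO or both, and this origin ordered the values. Of the 70 Rpb2 peaks, 21 came from both lists, 13 from WT alone and 36 from KO alone, and their median log2FC values were -0.09, -1.09 and 0.49, where all Rpb2 peaks of these origins had -0.17, -0.89 and 0.51. Both KO libraries lay above both WT libraries at 13 of the 36 peaks of KO alone (41.8% of all such peaks) and below them at 10 of the 13 of WT alone (63% of all). Of the 21 in both lists, 2 were above (10.2% of all) and 6 below (29.9% of all). For H3K27Ac, 25 peaks were in both lists, 7 in WT alone and 12 in KO alone, with median log2FC values of 0.10, -1.86 and 0.99. All H3K27Ac peaks of these origins had 0.04, -6.78 and 0.52. The libraries did not overlap, higher in KO, at 5 of the 25 (18.9% of all) and 1 of the 12 (24.7%), and lower at 4 of the 25 (13.2%) and 3 of the 7 (20.5%). The lists were called on the same libraries, so these medians describe the calling and carry no test.

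**Figure D4:**
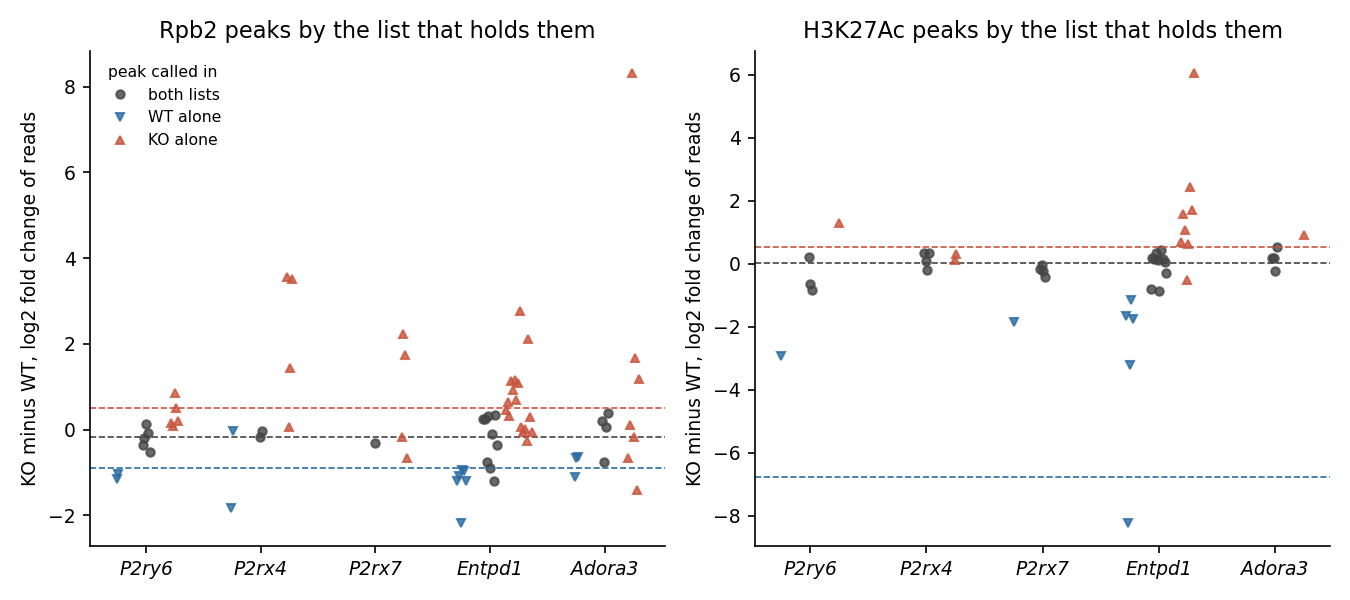
The log2FC (KO minus WT, vertical axis) of every Rpb2 peak (left) and H3K27Ac peak (right) of each gene, by the list it came from (circles both lists, blue triangles WT alone, red triangles KO alone). Dashed lines are the medians over all tested peaks of the same list, at -0.17, -0.89 and 0.51 for Rpb2 and 0.04, -6.78 and 0.52 for H3K27Ac. The peaks of both lists sit between -1.19 and 0.40 for Rpb2, and the farthest points come from peaks of a single list.

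The Rpb2 peak with the lowest p of all 70 lay upstream of *Adora3*. It had 0, 0, 74 and 40 reads, a KO level of 14.5 ± 1.52 CPM (SD, n = 2). It was listed for KO alone and met the minimum of 4 reads only through the KO libraries, so its direction was fixed by how it was chosen, and no fold or test is given. Beside it, the *Adora3* start peak had 144, 186, 762 and 272 reads.

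The highest Rpb2 peaks away from the starts showed no such gap. In *P2ry6* it lay 3.0 kb into the gene (chr7:100961269-100961547) and had 84, 150, 372 and 292 reads (log2FC 0.13 ± 0.34, adjusted p = 0.900). In *Adora3* it lay 12.3 kb upstream, within *Tmigd3*, and had 141, 72, 311 and 105 reads (-0.67 ± 0.41, adjusted p = 0.532). In *P2rx7* it lay 20.0 kb downstream of the start and had 18, 35, 78 and 23 reads (-0.67 ± 0.68, adjusted p = 0.715), and in *P2rx4* it lay past the 3′ end and had 24, 65, 204 and 59 (-0.03 ± 0.54, adjusted p = 0.988). The genotypes overlapped at all 4 of these peaks.

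Other low-count Rpb2 peaks listed for KO alone also met the minimum through the KO libraries only, and their reads are given as a description. In the body of *P2rx4*, 17.6 kb from its start, a peak over an exon (chr5:122724997-122725255) had 1, 3, 64 and 59 reads. In *Entpd1*, 55.3 kb from its start, a peak in an intron had 4, 3, 111 and 37 reads. In *P2rx7*, 4.2 kb from its start, a peak had 4, 3, 59 and 34 reads. The KO female library held 44332626 reads, the most of any Rpb2 library, and its part in which peaks were called was not tested.

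Away from the starts, the highest H3K27Ac peaks did not pass either. The lowest p was at a peak 15.1 kb upstream of *P2ry6* (chr7:100978290-100980677), of 134, 290, 264 and 419 reads. The WT level there was 42.1 ± 6.01 CPM and the KO level 26.9 ± 9.60 (SD, n = 2), or -0.65 ± 0.32 as log2FC (adjusted p = 0.811). Both KO libraries lay below both WT libraries there, as at 13.2% of all H3K27Ac peaks listed for both genotypes. The peak named *P2rx4* past its 3′ end, on the side of *Camkk2*, had 233, 541, 1234 and 1258 reads and 0.35 ± 0.29 (adjusted p = 0.835). At this peak both KO libraries lay above both WT libraries, as at 18.9% of all H3K27Ac peaks listed for both genotypes. A peak named *Adora3*, past the end of its transcript and 10.3 kb from its start, had 57, 227, 569 and 423 reads and 0.54 ± 0.32 (adjusted p = 0.811). In *P2rx7*, the highest peak away from the start, 4.7 kb upstream, had 165, 388, 667 and 584 reads (log2FC -0.16 ± 0.29, adjusted p = 0.995), and the one with the lowest p, 9.1 kb into the gene, had 55, 191, 223 and 224 (-0.41 ± 0.38, adjusted p = 0.874). The genotypes overlapped at both. The lowest p in *Entpd1* came from a peak of 30, 0, 0 and 0 reads, so that WT itself was divided and no fold is given.

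The 6 genes stand on a list of 38 genes of purinergic signalling (P2X, P2Y and adenosine receptors, ectonucleotidases, and genes of purine release, uptake and adenosine metabolism). Of these, 16 had a tested Rpb2 sum and 26 a tested H3K27Ac sum, and 0 passed for either mark. The median log2FC was 0.00 for Rpb2 and -0.06 for H3K27Ac, against 0.02 and -0.11 over all genes. Without the members it was 0.02 over 11 genes and -0.10 over 21. Among P2X receptors only *P2rx4* and *P2rx7* of 7 genes had Rpb2 peaks. Among adenosine receptors it was *Adora3* of 4, and among 10 ectonucleotidases *Entpd1*. Of 8 P2Y receptors, 4 did, and *P2ry13*, a receptor for ADP, had the highest Rpb2 sum of the list at 1574 CPM in WT, followed by *Entpd1* at 853, *P2ry6* at 511 and *Adora3* at 453. The place of *Adora3* rests on named peaks outside its transcript, since those that overlapped the transcript held 137 CPM in WT.

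**Figure D5:**
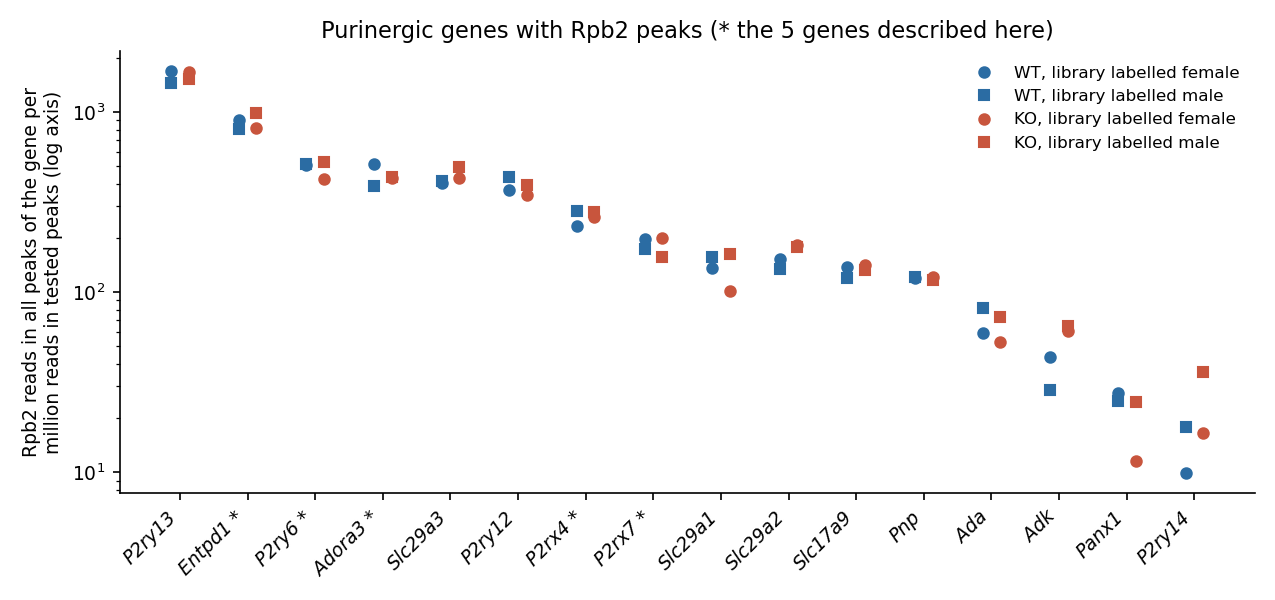
Summed Rpb2 level of all peaks of a gene in CPM (vertical log axis) for the 16 purinergic genes with a tested sum, ordered by the WT mean, with single libraries as points (blue WT, red KO, circles labelled female, squares labelled male). The 5 genes described here hold places 2, 3, 4, 7 and 8 of 16. The sums count every peak that carries a name, and most of those named *Adora3* lie outside its transcript.

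Of the other genes of the list, those with the lowest p for Rpb2 were *Adk*, adenosine kinase (57, 45, 329 and 161 reads, log2FC 0.81 ± 0.39, adjusted p = 0.467), *Slc29a2*, a nucleoside transporter (0.32 ± 0.22, adjusted p = 0.629), and *P2ry14*, a receptor for UDP-sugars (0.89 ± 0.64, adjusted p = 0.653). For H3K27Ac they were *Panx1*, a channel that releases ATP (115, 88, 90 and 77 reads, -1.80 ± 0.62, adjusted p = 0.469), and the adenosine receptors *Adora2b* (-1.66 ± 0.79, adjusted p = 0.775) and *Adora1* (0.36 ± 0.25, adjusted p = 0.943). DESeq2 called *Panx1* (adjusted p = 0.0457).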

How the data were processed

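ChIP-seq for Rpb2 and H3K27Ac was done on 2 pools of sorted microglia per genotype, with 51-nt single-end reads. The authors mapped reads to mm10 with Bowtie 2, kept unique reads, called peaks with HOMER, filtered them between replicates by the irreproducible discovery rate, and deposited raw read counts per merged peak with the nearest gene start and the list of origin. Those deposited counts were the only values used, and the coordinates are as deposited. The sequence under 1 peak is not reported here.

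The members and the gene lists were chosen with earlier results of these data known. Every peak whose mean in either genotype reached 4 reads was tested over the whole table with edgeR 4.0.16 (quasi-likelihood, TMM, Benjamini-Hochberg) in R 4.3.3, with genotype alone, whereas the study tested start peaks with DESeq2. Counts were also summed per gene name. DESeq2 1.42.0, other scalings and filters, a replicate block and each library left out were alternatives. The fits were also run on simulated data of lower dispersion than the common dispersion here, 0.133 for Rpb2 and 1.28 for H3K27Ac. That run cannot show how they behave at this spread. Levels are CPM, scaled to 1000000 reads in tested peaks after TMM, and per kb of peak where genes are compared. A level is from the peak with the most reads within 1000 bp of a start. Changes use a prior of 2 reads where log2 ratios of single libraries are given. Intervals of a log2 fold change use the SE of the fit and the quantile at its degrees of freedom.

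Genes named beside the members are the 2 nearest in start values and, of a list of 38 purinergic genes, any past the test and otherwise the 3 with the lowest p per mark. For each member and mark the peaks named are the highest at the start, the highest elsewhere and the one with the lowest p, with a few others named after their values were seen. The pools are separate animals, with n = 2, so p-values rest on 2 degrees of freedom beside the shared dispersion. The female-minus-male differences of the 2 genotypes correlated at -0.00762 for Rpb2 and -0.000271 for H3K27Ac, which showed no pairing by replicate number. Both values use a WT female library, with Y-linked reads for Rpb2 and a low share of reads in peaks for H3K27Ac. They therefore cannot decide whether the libraries were paired.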

Additional observations from a re-analysis of the deposited data

Results flagged for a closer look

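At 5 values the KO-to-WT ratio ran in opposite directions between the libraries labelled female and those labelled male, each beyond the 95% interval of its counting error. The difference between the sexes was not tested, each sex has 1 library per genotype, and the Rpb2 library labelled WT female held Y-linked reads. The log2 ratio of summed Rpb2 was -0.14 in female and 0.29 in male libraries for *Entpd1*, and -0.27 and 0.16 for *Adora3*. For the Rpb2 peak named *P2rx4* past its 3′ end it was 0.96 and -0.87. For H3K27Ac, where the WT female library had the low share of reads in peaks, the ratio was 0.61 and -0.16 for the *Adora3* sum and 0.52 and -0.23 for the *Entpd1* peak over the start with Rpb2. The part of these libraries in the values was not tested.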

How the results depend on the processing

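Of 363 log2FC values of single peaks and gene sums under the alternatives, 306 kept their direction and their side of the threshold, 17 passed the test only in the alternative and 40 changed sign. None of those that changed sign passed with all 4 libraries. The cause of these changes was not tested. Without a filter on low counts, 0 peaks and 0 sums of these genes were called. DESeq2 called 2 of their 70 Rpb2 peaks, and over all features it called 1022 Rpb2 peaks, 28 Rpb2 sums, 240 H3K27Ac peaks, 208 H3K27Ac sums and, of the purinergic list, 1 H3K27Ac sum. With total reads as library size, 28 Rpb2 sums, 0 H3K27Ac peaks and 8 H3K27Ac sums were called over all genes. The values that changed sign were the Rpb2 sums of *P2ry6* (0.17), *P2rx7* (0.19) and *Adora3* (0.19), the Rpb2 start peaks of *P2rx4* (0.17) and *P2rx7* (0.01), the *P2rx4* peak past the 3′ end (0.26), and for *P2rx7* H3K27Ac the sum (0.54), the start peak (0.69) and the peaks 4.7 kb upstream (0.43) and 9.1 kb into the gene (0.06). At least 10 reads in every library gave 30 Rpb2 peaks, 6 Rpb2 sums and 1 H3K27Ac peak, and 0.10 at the *P2rx4* peak past the 3′ end. Only peaks near starts gave 0 for both marks. Loess offsets gave 15 Rpb2 peaks and 0.06 at the *P2rx4* peak past the 3′ end. For H3K27Ac they gave -0.05 at *P2ry6*, -0.06 at *P2rx4* and -0.06 at *Entpd1*, each at the peak over the start with Rpb2. No fold is given for the low-count peaks listed for KO alone, because their direction was fixed by how they were chosen. Summing only peaks of both lists, chosen after seeing the data, gave 8 Rpb2 sums and 0.24 for *Adora3*.

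The sex label, which the replicate numbers follow, showed no pairing of the libraries. As a replicate block it gave 4 Rpb2 peaks, 43 Rpb2 sums and 140 H3K27Ac sums over all genes, with 0 calls among these genes, and 0.03 at the *P2rx4* peak past the 3′ end.

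Leaving out 1 library gave 0 to 9 called Rpb2 peaks of these genes (9 without the WT female library, 4 without the WT male), 0 to 11 H3K27Ac peaks and 0 to 4 H3K27Ac sums (11 and 4 without the WT male). Over all features it gave 0 to 2210 Rpb2 peaks, 0 to 264 Rpb2 sums, 2 to 8157 H3K27Ac peaks (694 without the WT female), 88 to 3807 H3K27Ac sums and 0 to 13 of the purinergic list for H3K27Ac. These fits assume the lone library to vary like the other genotype. All calls of these genes came from fits with a lone WT library, which also gave the highest totals over all features. The calls are thus not specific to these genes, and no conclusion about a change is drawn from them. The Rpb2 sums ranged from -0.26 to 0.04 for *P2ry6*, -0.08 to 0.22 for *P2rx4*, -0.23 to 0.12 for *P2rx7*, -0.06 to 0.21 for *Entpd1* and -0.26 to 0.13 for *Adora3*, and the H3K27Ac sums from -0.04 to 0.37 for *P2ry6*, -0.07 to 0.47 for *Entpd1* and -0.21 to 0.67 for *Adora3*. Rpb2 start peaks ranged from -0.21 to 0.61 for *Entpd1* and -0.14 to 0.24 for *Adora3*, and the highest peaks elsewhere from -0.28 to 0.47 for *P2ry6*, -0.51 to 0.70 for *P2rx4* and -1.16 to 0.03 for *Adora3*. For H3K27Ac, the peak over the start ranged from -0.02 to 0.22 for *P2rx4*, -0.10 to 0.01 for *P2rx7*, -0.17 to 0.45 for *Entpd1* and -0.10 to 0.58 for *Adora3*, and the *P2rx7* peaks from -0.35 to 0.07 (4.7 kb upstream) and -0.81 to 0.17 (9.1 kb into the gene).

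With all peaks of a gene summed per kb, 1 rather than 5 genes lay above the median for Rpb2. Without division by peak length, the Rpb2 sums of all 5 lay above it. For H3K27Ac, only *P2rx4*, *P2rx7* and *Entpd1* had a peak centred within 1000 bp of a start, and all 3 lay above the median. Summed per kb, or with the overlapping peak, all 5 genes did. Libraries of 10395804 to 44332626 reads with n = 2 left wide intervals for the sums of these genes. To each side they spanned 0.24 to 0.45 log2 units for Rpb2 and 0.54 to 0.73 for H3K27Ac. These intervals are not adjusted for the number of genes, so they are not the detection limit of the adjusted test. The Rpb2 sum of *Cx3cr1*, at -0.35 ± 0.08 (SE), did not pass that test (edgeR quasi-likelihood test, adjusted p = 0.121). Changes larger than 0.24 could thus also go undetected.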
